A study of Mus musculus with 8 samples.

Results

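The NR4A orphan receptors, Nr4a1, Nr4a2 and Nr4a3, were examined for chromatin accessibility in mouse gastrocnemius, a calf muscle, after induced loss of the clock factor Bmal1. They are represented by every region that the deposited table annotates to one of these gene names, 38 of 489637 regions and 3 of 27552 genes, with 17 at Nr4a1, 17 at Nr4a2 and 4 at Nr4a3. ATAC-seq, in which a transposase inserts adapters into open DNA, was run on 8 libraries of nuclei from mice of 6 months of age. Every mouse was labelled Cre+:iMSBmal1 fl/fl, that is, it carried a Cre transgene and floxed Bmal1, and 4 libraries came from mice given vehicle (Vehicle) and 4 from mice given tamoxifen (iMSBmal1KO). The Cre and the floxed alleles were therefore shared by both groups, and the effect of tamoxifen cannot be told apart from that of the knockout. The labels used here name neither the promoter that drives Cre, nor the time of day of collection, nor whether a library is 1 mouse, so p-values measure only the spread between these libraries, which may be technical. Each preparation began from a pair of whole gastrocnemius muscles.

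NR4A receptors are nuclear receptors for which no classical hormone ligand is established, and their activity is set largely by how much of the protein is made. They are immediate-early genes, induced within a short time by cAMP, calcium and stress signals through CREB, MEF2 and SRF. In skeletal muscle Nr4a1 (also called Nur77) and Nr4a3 (also called Nor-1) are induced by exercise and regulate genes of glucose and oxidative metabolism, whereas Nr4a2 (Nurr1) is best known for its part in dopaminergic neurons.

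The RefSeq promoter windows of all 3 genes carry repeats of TGACG, the core of the cAMP response element that CREB binds. DNA before the start of each RefSeq promoter entry is printed here because the strongest start-site regions lie over all or part of it. The sequences are from RefSeq on GRCm38.p6, 5′ to 3′ on the strand of the gene, with TGACG, or CGTCA where the core lies on the other strand, in capitals. Those of Nr4a1 and Nr4a2 are the 250 bases before the start of the RefSeq promoter entry. That of Nr4a3 is a stretch of 26 bases with 2 of its cores, since RefSeq's gene begins within this window. These 26 bases lie inside RefSeq's gene, before the start of its promoter entry.
Nr4a1, chr15:101266596-101266845, plus strand: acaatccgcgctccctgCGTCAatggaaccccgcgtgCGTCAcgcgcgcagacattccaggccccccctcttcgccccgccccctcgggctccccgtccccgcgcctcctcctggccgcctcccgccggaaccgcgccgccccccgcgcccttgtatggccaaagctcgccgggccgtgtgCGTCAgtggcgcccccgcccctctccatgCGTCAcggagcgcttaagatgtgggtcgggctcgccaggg
Nr4a2, chr2:57124004-57124253, minus strand: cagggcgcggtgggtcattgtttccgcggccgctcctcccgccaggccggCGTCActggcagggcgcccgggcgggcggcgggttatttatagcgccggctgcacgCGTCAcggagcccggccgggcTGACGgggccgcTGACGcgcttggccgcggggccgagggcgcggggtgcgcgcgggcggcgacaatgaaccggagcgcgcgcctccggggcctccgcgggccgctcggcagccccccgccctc
Nr4a3, chr4:48045079-48045104, plus strand: tagcgtcccatgtCGTCAcatTGACG
In the 250 bases before the start of the RefSeq entry, searched on both strands, each of the 3 genes held 4 such cores. At Nr4a3 this window runs past the annotated start at 48045153, and not all 4 cores lie before that start. Among 32851 RefSeq promoter windows of that length, 17.8% held at least 1 and 0.137% held 4 or more. These windows were not matched for base composition. The printed bases of Nr4a1 and Nr4a2 are 74.4% and 80% G or C, and the part of this in the counts was not tested. The full palindrome TGACGTCA (1.55% of windows), the NR4A monomer element NBRE, AAAGGTCA (1.34%), the canonical E-box CACGTG (6.02%) and the AP-1 element TGANTCA (6.75%) were not among the letters of these 3 windows. The accessible regions covered 100% of the printed bases of Nr4a1 and Nr4a3 and 74% of those of Nr4a2. The last 2 cores printed for Nr4a2 lie in the part that no region covered. The table names no build. Its last base of each gene on the plus strand, Nr4a1 and Nr4a3, and both ends of Nr4a2 equal those of RefSeq on GRCm38.p6, and its later Nr4a1 start equals that of the RefSeq promoter entry. The first bases of the other 2 genes differ. RefSeq's Nr4a1 begins at base 101253902, before the table's first start at 101254269, so the printed Nr4a1 bases lie within the longer gene model. RefSeq's Nr4a3 begins 75 bases before the table's start at 48045153, and the start of its promoter entry lies 152 bases after it.

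The signal is the deposited value of a region in a library. It comes in steps, of 0.428 to 3.13 depending on the library, which were taken as the worth of a single read, and division by the step gave read equivalents. Depth ran from 4.31 M read equivalents in Vehicle replicate 4 to 29.5 M in iMSBmal1KO replicate 1 (M, mega). Values of the 4 libraries of a group are given in replicate order throughout. Vehicle replicate 4 also had the largest mitochondrial share, 16.5% against 1.11% to 5.51% in the other 7 libraries, and it had the lowest summed signal at each NR4A gene. Among markers of the tissue, 7 of 7 muscle fibre genes had signal in every library, with a summed signal of 15518 to 27423 in Vehicle and 23244 to 27499 in iMSBmal1KO. Other cell types gave lower sums, from lists of fewer genes with 3 to 27 tested regions against 403 for muscle fibre. The sums were not divided by gene number or length, so they do not measure shares of cells. The 5 endothelial genes summed to 1392 to 1867 and 1468 to 1773, the 4 fibro-adipogenic genes, 1 of them at 0 in at least 1 library, to 347 to 529 and 394 to 573, and the 4 macrophage and leukocyte genes found of 5 to 399 to 694 and 428 to 558. The 3 satellite cell genes summed to 553 to 625 and 610 to 766, the 3 smooth muscle genes to 447 to 536 and 469 to 564, and the 2 Schwann cell genes found of 3 to 175 to 368 and 329 to 452. The ranges overlapped in each of these lists, and their part in the NR4A results was not tested. In nuclei of whole muscle, fewer open nuclei of a type and less opening in each nucleus cannot be told apart.

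Nr4a1 and Nr4a3 were among the more open genes of this muscle and Nr4a2 was weaker. Per kb of annotated region, the summed signal over all 8 libraries averaged 712 ± 106 at Nr4a1, 661 ± 102 at Nr4a3 and 241 ± 44.5 at Nr4a2 (SD, n = 8), against a median of 125 over the 22224 genes tested. Nr4a1 lay above 94.1% of those genes, Nr4a3 above 92.9% and Nr4a2 above 69.5%. Nr4a1 exceeded Nr4a3 in 7 of 8 libraries, with ratios from 0.901 to 1.34, so the order of this pair was not the same in every library, while both exceeded Nr4a2 in 8 of 8. Within 1000 bp of the start sites the order was different. Nr4a3 was highest at 1002 ± 160 per kb, Nr4a1 had 732 ± 136 and Nr4a2 190 ± 36.8 (SD, n = 8), with Nr4a3 above Nr4a1 in all 8 libraries. The promoter signal of Nr4a2 per kb lay above only 46.9% of the 17469 promoters tested.

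The signal was spread differently along the 3 genes. At Nr4a1 3 regions held most of it. A region of 839 bp over the later start site, that of transcript Nr4a1-203 (chr15:101266173-101267011), had 43.5% of the gene's signal in Vehicle, and a region of 587 bp annotated as 5' UTR exon (chr15:101260197-101260783) had 34.4%. The third, at the upstream start of transcript Nr4a1-202 (chr15:101253777-101254069), had 7.96%. At Nr4a3 the start-site region of 653 bp (chr4:48044573-48045225) held 97.1% in Vehicle and 97.2% in iMSBmal1KO. At Nr4a2 no region held more than 21.3% in Vehicle, the share of a 535 bp region annotated as 5' UTR exon (chr2:57116149-57116683), followed by 20.7% at a 272 bp region before the first start (chr2:57124140-57124411). Of the 38 regions the table annotates 21 as TSS, 15 as 5' UTR exon, 1 as coding exon 3 and 1 as intron 7, the last 2 at Nr4a3. These section names are as deposited.

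**Figure D1:**
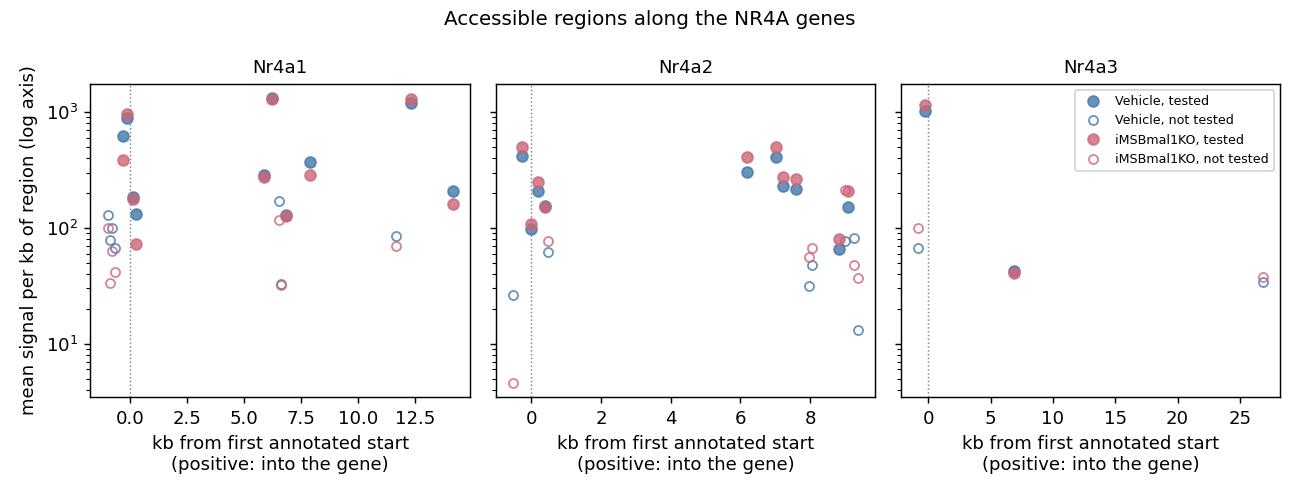
Mean signal per kb of region (log axis) in Vehicle (blue, n = 4) and iMSBmal1KO (red, n = 4) for all 38 NR4A regions, by distance of the region's centre in kb from the first annotated start of each gene, with filled points for the 22 regions tested. Nr4a1 has 3 separate strong positions, Nr4a2 has weaker regions at its first start and further into the gene, and Nr4a3 has 1 strong region.

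No NR4A gene passed the test on its summed signal. For Nr4a1, the NR4A gene with the most signal here, the summed signal of the Vehicle libraries was 2697, 2320, 2436 and 1629, and that of the iMSBmal1KO libraries was 1922, 2397, 2444 and 2210. The lowest value of all 8 was that of Vehicle replicate 4, and the groups overlapped. The means were 2271 ± 456 and 2243 ± 237 (SD, n = 4 per group), with a change of 0.00 ± 0.16 (SE) on the scale of log2(signal + 1), and an adjusted p of 0.999 by limma. Its 95% interval ran from -0.33 to 0.33, or from 0.797-fold to 1.26-fold. Without Vehicle replicate 4 the change was -0.15.

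Nr4a2 had a higher mean in iMSBmal1KO, and the difference did not pass the test. Its sum was 633, 694, 480 and 394 in Vehicle and 662, 697, 648 and 690 in iMSBmal1KO. The iMSBmal1KO libraries lay close together, and Vehicle replicate 2 was within their range while Vehicle replicates 3 and 4 were well below it. The means were 550 ± 138 and 674 ± 23.4 (SD, n = 4 per group), for a log2 difference of 0.33 ± 0.17 (SE, 95% interval -0.03 to 0.69), with an adjusted p of 0.548 by limma. Without Vehicle replicate 4 it was 0.18, with an adjusted p of 0.883.

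For Nr4a3 the difference had the same sign and did not pass either. Its sum was 852, 744, 630 and 503 in Vehicle and 738, 762, 834 and 735 in iMSBmal1KO, and both the highest and the lowest value belonged to Vehicle. The means were 682 ± 150 and 767 ± 46.0 (SD, n = 4 per group), for a log2 difference of 0.19 ± 0.16 (SE, 95% interval -0.15 to 0.54), with an adjusted p of 0.666 by limma. Without Vehicle replicate 4 it was 0.06.

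These values stand beside a genome-wide background. Of the 22224 genes tested in the same way, 29 had an adjusted p under 0.05, or 0.13%, and 0 of the 3 NR4A genes did, nor was any of their unadjusted p-values under 0.05. Before adjustment 2106 of the 22224 genes had a p under 0.05 by limma. The median log2 change of all tested genes was 0.11, and it was 0.0029 with cyclic loess scaling and 0.05 without Vehicle replicate 4. Relative to the median of 0.11, the changes were -0.11 at Nr4a1, 0.22 at Nr4a2 and 0.09 at Nr4a3. As a ratio within each library, the Nr4a2 sum was 24.3% ± 4.21 of the Nr4a1 sum in Vehicle and 30.3% ± 3.36 in iMSBmal1KO (SD, n = 4 per group), with overlapping groups. For Nr4a3 over Nr4a1 the ratios were 30.1% ± 2.87 and 34.4% ± 2.84, and for Nr4a2 over Nr4a3 80.5% ± 8.63 and 88.2% ± 7.21 (SD, n = 4 per group), also overlapping.

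**Figure D2:**
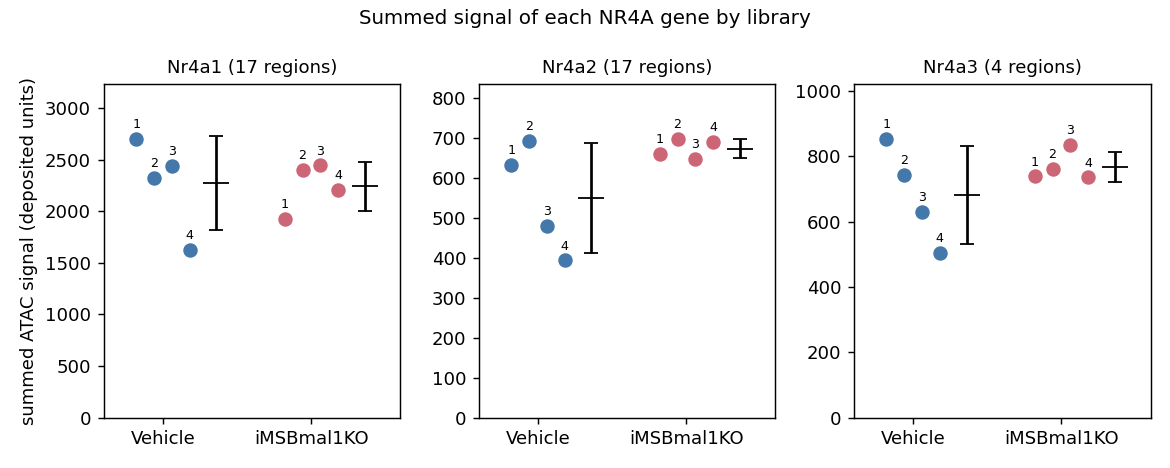
Summed ATAC signal in deposited units of Nr4a1, Nr4a2 and Nr4a3 in each library, with points numbered by replicate and bars giving mean and SD (n = 4) for Vehicle (blue) and iMSBmal1KO (red). The groups overlap at all 3 genes, and Vehicle replicate 4 is the lowest point in each panel.

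No annotated section of the 3 genes passed the test. At the TSS sections the log2 changes were 0.05 ± 0.19 for Nr4a1, 0.34 ± 0.20 for Nr4a2 and 0.20 ± 0.18 for Nr4a3 (SE, adjusted p by limma 0.945, 0.566 and 0.693). In the 5' UTR exon sections Nr4a1 had -0.06 ± 0.16 and Nr4a2 0.31 ± 0.19 (SE, adjusted p by limma 0.908 and 0.567), and the coding exon of Nr4a3 had -0.02 ± 0.39 (SE, adjusted p 0.989 by limma). The unadjusted p-values of these 6 were also above 0.05, and the background was 76 called of 51322 gene sections (0.148%), with 5048 under 0.05 before adjustment. The intron 7 section of Nr4a3 was below the filter on low signal. The promoter sums, over regions centred within 1000 bp of a start, were for Nr4a1 1631, 1414, 1418 and 866 in Vehicle and 1118, 1458, 1545 and 1263 in iMSBmal1KO. For Nr4a2 they were 247, 293, 202 and 166, then 295, 308, 252 and 251. For Nr4a3 they equalled the TSS section, with 839, 728, 615 and 485, then 724, 752, 815 and 716. The groups overlapped at each gene, with Vehicle replicate 4 lowest, and the log2 changes were 0.04 ± 0.19 for Nr4a1, 0.31 ± 0.20 for Nr4a2 and 0.20 ± 0.18 for Nr4a3 (SE, adjusted p by limma 0.941, 0.543 and 0.653), against 16 called of 17469 promoters (0.0916%) and a median change of all promoters of 0.15. Without Vehicle replicate 4 the TSS sections of Nr4a1, Nr4a2 and Nr4a3 had -0.15, 0.18 and 0.06, their promoters -0.15, 0.17 and 0.06, and the 5' UTR exon sections of Nr4a1 and Nr4a2 -0.16 and 0.17, while the coding exon of Nr4a3 had 0.03. Median-of-ratios, total-read and cyclic loess scaling turned the sign at the Nr4a1 TSS section and promoter, to values between -0.11 and -0.0061.

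Region by region, 22 of the 38 passed the filter, 10 at Nr4a1, 10 at Nr4a2 and 2 at Nr4a3, and 16 did not. The latter had a mean signal between 1.09 and 12.3. None of the 22 had an adjusted p under 0.05 (limma, smallest 0.441), beside 110 of 124901 tested regions or 0.0881%, and 2 had an unadjusted p under 0.05, against 9.22% of all tested regions, a share close to that of the 22. In 1 of the 22 the 2 groups did not overlap, against 5.48% of all tested regions. Signs were mixed over the family, beside 62.0% positive changes among all tested regions. At Nr4a1 8 of 10 log2 changes were negative, with a median of -0.05. At Nr4a2 all 10 were positive, with a median of 0.29, and 9 of them exceeded 0.12, the median over the tested regions of the whole table. The regions of a gene share its libraries and some abut, so they are not independent, and Vehicle replicate 4 was the lowest Vehicle library at 14 of the 22.

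**Figure D3:**
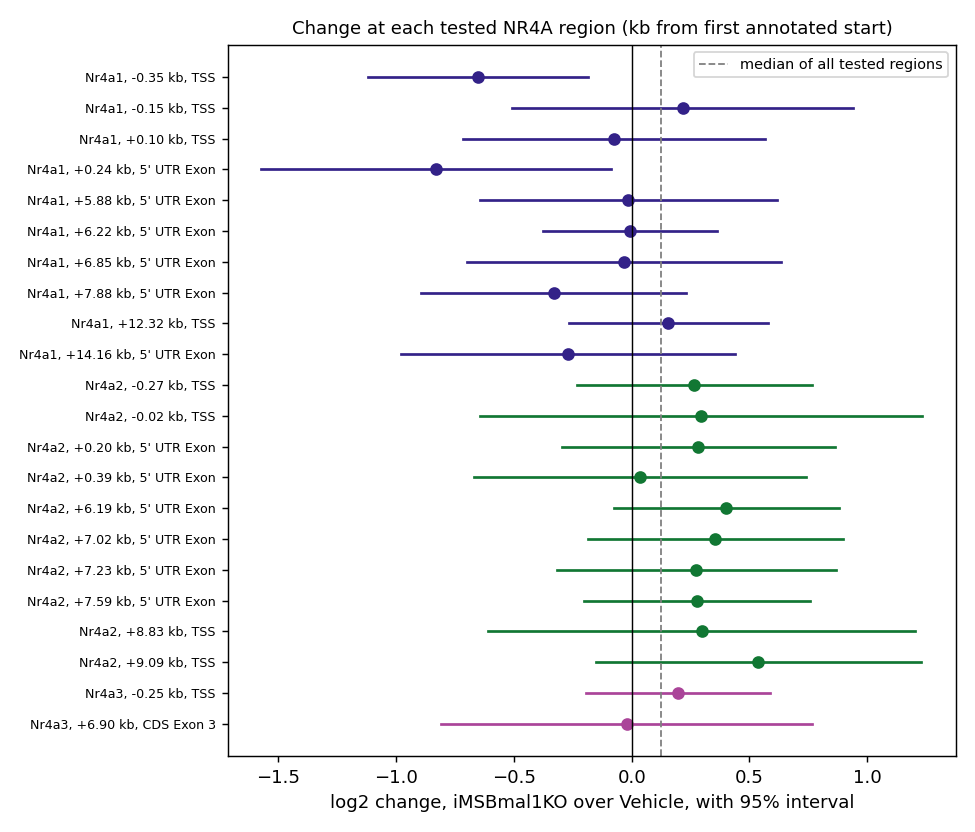
Log2 change in iMSBmal1KO over Vehicle with its 95% interval for the 22 tested regions of Nr4a1 (dark blue), Nr4a2 (green) and Nr4a3 (purple), labelled by distance from the first annotated start in kb and by section, with the median of all tested regions dashed. The intervals of 20 regions include 0, and the 2 that do not are Nr4a1 regions beside the upstream start, at -0.65 and -0.83, which did not pass after adjustment.

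The smallest p of the 22 was at the upstream start of Nr4a1. The region chr15:101253777-101254069, whose centre is 346 bp before the start of Nr4a1-202, had a signal of 213, 203, 187 and 122 in the Vehicle libraries against 98.9, 122, 126 and 105 for iMSBmal1KO. Vehicle replicates 1 to 3 were above every iMSBmal1KO library, and Vehicle replicate 4, the shallowest with 39 reads there, was within its range. The means were 182 ± 41.1 and 113 ± 13.2 (SD, n = 4 per group), for a log2 difference of -0.65 ± 0.22 (SE, 95% interval -1.12 to -0.18), with an unadjusted p of 0.00863 and an adjusted p of 0.441 by limma. Under cyclic loess scaling it was -0.82 with an adjusted p of 0.0387, the only one of 18 alternatives that put it past the threshold. Without Vehicle replicate 4 it was -0.83, with an adjusted p of 0.0779 by limma.

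Values at its neighbours were mixed. The next region, chr15:101254070-101254162, abuts it and had 91.7, 118, 91.5 and 31.3 in Vehicle and 105, 110, 63.2 and 79.0 in iMSBmal1KO, for a log2 difference of 0.22 ± 0.34 (SE, adjusted p 0.846 by limma). With both regions merged the change was -0.33 ± 0.23 (SE, adjusted p 0.631 by limma). A weak region just after the start, chr15:101254433-101254583, named after its values were seen, had 18.1, 14.4, 24.8 and 21.9 in Vehicle and 14.98, 5.85, 11.9 and 11.3 in iMSBmal1KO, for a log2 difference of -0.83 ± 0.36 (SE, unadjusted p of 0.0301, adjusted p 0.514 by limma). It rested on 7 to 39 reads a library.

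Neither of the 2 strong regions further in passed the test. The 5' UTR exon region, chr15:101260197-101260783, named after its values were seen, had 935, 792, 783 and 600 in Vehicle and 703, 804, 756 and 800 in iMSBmal1KO, for a log2 difference of -0.01 ± 0.18 (SE, 95% interval -0.38 to 0.36, adjusted p 0.993 by limma). The region at the later start, chr15:101266173-101267011, whose upstream bases are printed above, had 1251, 1036, 1056 and 644 in Vehicle and 862, 1190, 1287 and 1029 in iMSBmal1KO. Its groups overlapped, with a log2 change of 0.16 ± 0.20 (SE, 95% interval -0.27 to 0.58, adjusted p 0.808 by limma), and -0.04 without Vehicle replicate 4.

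A ratio of 2 regions within a library does not depend on the scaling of that library. The upstream start region held 17.0%, 19.6%, 17.8% and 18.9% of the signal of the later start region in the Vehicle libraries against 11.5%, 10.3%, 9.82% and 10.2% for iMSBmal1KO. The means were 18.3% ± 1.17 and 10.5% ± 0.712 (SD, n = 4 per group), and the groups did not overlap. Its share of all Nr4a1 signal averaged 7.96% ± 0.564 in Vehicle against 5.04% ± 0.188 in iMSBmal1KO (SD, n = 4 per group), with no overlap. Over the 5' UTR exon region the ratio was 23.2% ± 2.25 and 14.8% ± 1.53 (SD, n = 4 per group), again without overlap, whereas the ratio of the 5' UTR exon region to the later start region overlapped (79.6% ± 9.10 and 71.4% ± 10.3). The region that abuts the upstream start region had 8.06% ± 2.73 of the later start region in Vehicle and 8.49% ± 3.03 in iMSBmal1KO (SD, n = 4 per group), with overlapping groups. These pairs were chosen after the values were seen and are given as a description. The share of all such pairs whose groups do not overlap was not computed.

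The same question was asked of every region that passed the filter and whose gene had another region. Each region's signal was set against the rest of its own gene. At the upstream start region the log2 change of this ratio was -0.70 ± 0.18 (SE, 95% interval from -1.07 to -0.32), with an unadjusted p of 0.00118 and an adjusted p of 0.371 by limma over 95206 regions, of which 33 passed (0.0347%). At the later start region it was 0.29 ± 0.17 (SE, adjusted p 0.638 by limma). None of the 22 NR4A regions passed. The groups did not overlap in this ratio at the upstream region, 1 of the 22, against 5.26% of the 95206 regions.

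**Figure D4:**
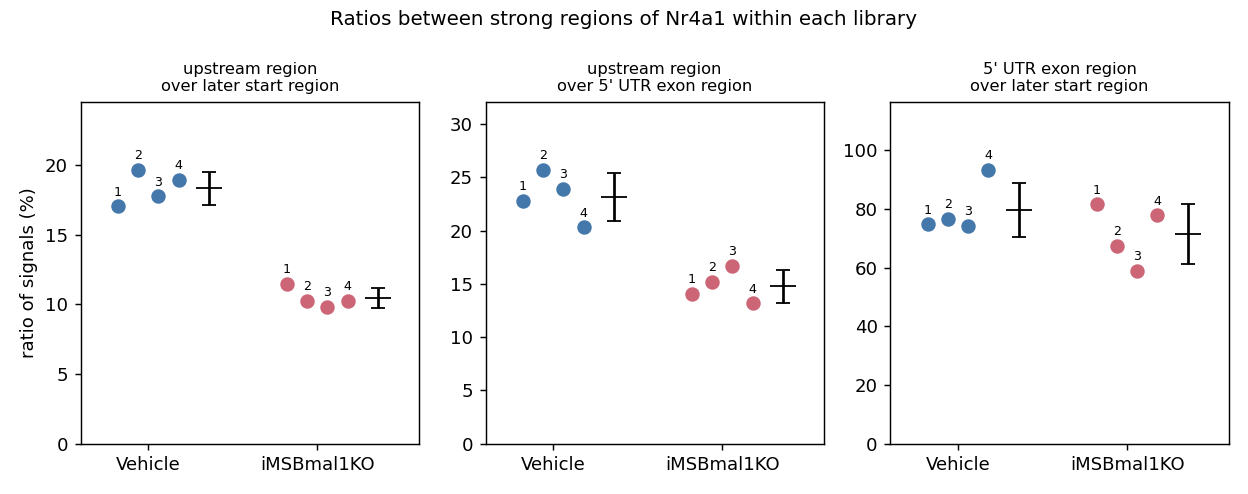
Ratio in percent between strong regions of Nr4a1 within each library, with points numbered by replicate and bars giving mean and SD (n = 4) for Vehicle (blue) and iMSBmal1KO (red). In the first and second panels, with the upstream start region as numerator, every iMSBmal1KO point lies below every Vehicle point, and in the third panel, between the other strong regions, they overlap. The pairs were chosen after the values were seen.

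At Nr4a2 the largest region, chr2:57116149-57116683, had 139, 128, 112 and 84.4 in Vehicle and 105, 141, 167 and 148 in iMSBmal1KO, with overlapping groups and a log2 difference of 0.28 ± 0.23 (SE, adjusted p 0.693 by limma), which was 0.13 without Vehicle replicate 4. The region chr2:57117715-57117916, also annotated as 5' UTR exon, had the smallest p of the gene's tested regions before any were merged. Its signal was 67.2, 70.9, 53.4 and 56.3 in Vehicle and 84.7, 72.8, 77.5 and 92.8 in iMSBmal1KO, so every iMSBmal1KO library was above every Vehicle library, by a narrow margin. The means were 61.9 ± 8.42 and 82.0 ± 8.76 (SD, n = 4 per group), for a log2 difference of 0.40 ± 0.23 (SE, 95% interval -0.07 to 0.88, adjusted p 0.583 by limma). The region over part of the printed promoter, chr2:57124140-57124411, named after its values were seen, had 106, 155, 99.8 and 90.7 in Vehicle and 155, 171, 104 and 113 in iMSBmal1KO, for a log2 difference of 0.27 ± 0.24 (SE, adjusted p 0.717 by limma), which was 0.17 without Vehicle replicate 4.

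A further Nr4a2 region, at the internal start of transcript Nr4a2-205 (chr2:57114980-57115045), was below the filter and so has no test. It had 7.46, 7.19, 5.72 and 0 in Vehicle and 12.8, 13.4, 10.7 and 18.8 in iMSBmal1KO, from 0 to 30 reads a library. Its groups did not overlap, as was true of 1 of the 16 NR4A regions not tested and of 3.08% of all regions not tested, and it was named after its values were seen. Merged with the abutting region after it in the direction of the gene, the signal was 24.9 ± 12.7 and 41.1 ± 3.28 (SD, n = 4 per group). The log2 difference was 0.82 ± 0.32 (SE, unadjusted p of 0.0172, adjusted p 0.472 by limma), and the groups overlapped.

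At Nr4a3 the start-site region, chr4:48044573-48045225, had 834, 722, 612 and 485 in Vehicle and 719, 748, 812 and 705 in iMSBmal1KO, so the iMSBmal1KO values lay inside the Vehicle range. The log2 change was 0.20 ± 0.19 (SE, 95% interval -0.19 to 0.59, adjusted p 0.733 by limma), and it was 0.06 without Vehicle replicate 4 and 0.32 without Vehicle replicate 1. The coding exon 3 region, chr4:48051915-48052183, had 8.53, 15.4, 8.90 and 12.5 in Vehicle and 11.1, 8.36, 13.1 and 11.3 in iMSBmal1KO, for a log2 difference of -0.02 ± 0.38 (SE, adjusted p 0.990 by limma), from 4 to 26 reads a library.

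Intergenic regions within 50 kb of the NR4A regions, a window chosen after values were seen, also held no call. Of 31 near Nr4a1 21 were tested, of 2 near Nr4a2 1, and of 9 near Nr4a3 2, with smallest adjusted p-values by limma of 0.571, 0.824 and 0.742. Near Nr4a1 and Nr4a3 the strongest of them had more signal than any single NR4A region. Near Nr4a3 a region just upstream of the start, chr4:48042944-48043711, had 1361 ± 290 in Vehicle and 1516 ± 125 in iMSBmal1KO, and near Nr4a1 one at chr15:101240818-101241458 had 1146 ± 209 and 1165 ± 176 (SD, n = 4 per group).

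Genes that signal to, share induction with, partner or are described as targets of NR4A receptors were read from the same gene-level fit. The 19 upstream signal and transcription factors, which include Creb1, its coactivators of the Crtc family, Mef2 factors and Srf, were all tested, and 0 rose and 0 fell, with a median log2 change of 0.11 against 0.11 over all genes and 1 unadjusted p under 0.05. That was the highest, Camk2d, a calcium-dependent kinase, with 1991 ± 284 in Vehicle and 2600 ± 206 in iMSBmal1KO (SD, n = 4 per group), for a log2 difference of 0.39 ± 0.14 (SE, unadjusted p of 0.0109, adjusted p 0.497 by limma). Of the 15 other immediate-early genes, among them Fos, Junb and Egr1, 0 rose and 0 fell, with a median of 0.09 and a range from -0.40 at Fosl1 to 0.39 at Egr2. The 8 dimer partners and coregulators, including the retinoid X receptors with which Nr4a1 and Nr4a2 can pair, had a median of 0.11, and 0 of them passed. In these last 2 lists and the next, 0 genes had an unadjusted p under 0.05. Over all 22224 genes tested 2106 had one, and 29 (0.13%) passed after adjustment.

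The 14 genes described as NR4A targets in muscle, such as the glucose transporter gene Slc2a4, the glycogen phosphorylase gene Pygm and Ucp3, had a median log2 change of 0.01, or -0.10 relative to all genes, and 0 rose and 0 fell. They ranged from -0.21 at Ucp2 to 0.26 at Cpt1b.

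By likeness of pattern, measured as the Pearson correlation over the 8 libraries of a gene's log2 summed signal less the median of all tested genes, the closest of 14620 genes to Nr4a1 were Spag9 (r = 0.975), Mtr (0.974) and Gm49380 (0.972). The closest to Nr4a2 were Nr6a1 (0.986), Nup88 (0.985) and Psma7 (0.978), and to Nr4a3 Sppl2a (0.978), Sf3b1 (0.964) and Mob1b (0.945). Without Vehicle replicate 4 these values ran from 0.913 to 0.985. Between members r was 0.254 for Nr4a1 and Nr4a2, 0.707 for Nr4a1 and Nr4a3 and 0.725 for Nr4a2 and Nr4a3. Apart from the NR4A genes, those compared held at least 5 regions. The genes named were picked as the highest of 14620 correlations over 8 libraries, and the values expected from such a choice were not computed. The points share libraries, depth and scaling, and the values are a description.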

How the data were processed

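Chromatin accessibility was measured in 8 libraries, 4 per group. The authors deposited 1 table of signal per region and library with gene annotation. Per the submitters' processing notes, Partek, Bowtie2, MACS2 and DESeq2 were used and the builds mm10 and GRCm39 are named, with no role or order given. Duplicate removal and read shift are not given in the sources used here. Between 98.3% and 99.8% of non-zero values were whole multiples of 1 step per library within 0.02 reads, and division by the step gave read equivalents. Region ends are the last base, 1 less than the deposited stop. Replicates are as labelled.

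Summed signal per gene, per gene section and per promoter (region centre within 1000 bp of the start of the annotated transcript) was made from all annotated regions. The plan assumed counts or a scaled signal, and its form for a scaled signal was used: limma-trend (limma 3.58.1, R 4.3.3) on log2(signal + 1), robust, group as the only term, adjusted by Benjamini-Hochberg over all features, threshold 0.05. Features needed at least 4 libraries with 0.762 read equivalents per M (mega) and 15 in all. A region's ratio to the rest of its gene was added after values were seen. On simulated libraries with 200 changed features, the test of 124901 regions recovered 36.0% of all changes and 65.3% of 4-fold ones with 0 unchanged regions called, and that of 22224 genes recovered 74.5% and 96.1% with 6 unchanged genes called. The ratio test of 95206 regions recovered 30.8% of 156 changes and called 13 unchanged regions. Simulated reads were drawn independently from the real mean signals and depths, with a fixed dispersion (spread between libraries) of 0.05. They held no general shift between the groups and no deviant library, so these shares may not hold for the real libraries. Members and lists were chosen with earlier results of these data known. Named were, per gene, the region of highest mean signal and those with the smallest p higher and lower. Others are marked as named after their values were seen. Figures used Python 3.11.15 and matplotlib 3.10.9. Some results for genes of the lists are not reported here.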

Additional observations from a re-analysis of the deposited data

How the results depend on the processing

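Over 363 refits of 21 NR4A values, 1 passed the threshold of 0.05, that of the upstream Nr4a1 region under cyclic loess. The summed signal of Nr4a2 stayed positive in 19 of 19 settings (0.18 to 0.45) and that of Nr4a3 in 19 of 19 (0.06 to 0.31), and the upstream Nr4a1 region stayed negative in 18 of 18 (-0.83 to -0.56). Settings that changed only the filter, the threshold or the replicate block could not move these estimates, so their signs were fixed in advance. Values near 0 changed sign. The Nr4a1 sum was -0.11 with median-of-ratios factors, -0.052 with total reads, -0.055 with loess and -0.029 with limma-voom, and -0.15 to 0.092 with 1 library left out. Its promoter was -0.11, -0.011 and -0.046 under the first 3 and -0.15 to 0.15 with 1 library left out, and its TSS section -0.048, -0.0061 and -0.046, and -0.15 to 0.16. With 1 library left out its 5' UTR exon section ran from -0.16 to 0.0044, the 5' UTR exon region from -0.12 to 0.088 and that at the later start from -0.040 to 0.28. The Nr4a3 coding exon section was 0.0086 with loess and 0.0072 with voom, its region 0.013 with voom, and both ran from -0.13 to 0.13 with 1 library left out. The cause of these changes was not tested.

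The number of features called over the whole table depended on the processing. Against 110 regions there were 195 with no filter, 279 with median-of-ratios factors, 342 with loess, 342 with voom, 36 at a threshold of 0.01, and 32 to 281 with 1 library left out. Against 29 genes there were 48 with median-of-ratios factors, 65 with loess, 7 at 0.01 and 7 to 107 with 1 library left out. Against 76 gene sections there were 124, 150, 129 with voom, 31 at 0.01, and 27 to 159. Against 16 promoters there were 25 with a pseudocount of 5, 30, 27 with total reads, 35, 33, 8 at 0.01, 10 with a window of 500 bp, and 7 to 278. Against 33 regions in the ratio test there were 50 with a pseudocount of 5, and 3 to 44 with 1 library left out. The replicate numbers are shared by the groups without a stated pairing. Deviations from the group means correlated between same-numbered libraries with r of -0.06, 0.14, 0.02 and 0.02. Between differently numbered libraries r ran from -0.19 to 0.25. With the replicate number as a block there were 116 genes, 134 gene sections, 121 promoters and 19 regions in the ratio test, no NR4A value passed, and the Nr4a2 sum had an adjusted p 0.324 by limma (log2 change 0.33). Depth limits regions of few reads, such as those not tested.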
